A study of Mus musculus with 30 samples.

Results

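The mitochondrial genome of the mouse is transcribed into 37 genes, and all 37 rows of the deposited count tables whose names carry the mt- prefix were followed here, of 55471 rows in each table. The annotation in the tables makes 13 of them protein-coding, 2 of them ribosomal RNA (rRNA) genes and 22 of them transfer RNA (tRNA) genes. The tables hold counts from hematopoietic stem cells (HSCs) and from multipotent progenitors (MPPs), which descend from them, sorted from the bone marrow of C57BL/6 mice. Mice had received MTP10-HDL, a lipoprotein-based nanoparticle loaded with muramyl tripeptide, a Nod2 ligand, or phosphate-buffered saline (PBS). The HSC table has 6 MTP10-HDL and 7 PBS libraries, and the MPP table has 3 MTP10-HDL and 2 PBS libraries. Each library is a pool of cells from 4 mice, so each SD below is the spread between such pools. Standard errors (SE) of fold changes come from the fitted model instead. The labels give 3 injections within 5 days for the MPP samples, with marrow taken on the day after the last, and no age or sex is stated in the sources used here.

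The mitochondrial genome is a circle that is read from both strands as long precursor RNAs, which are then cut apart, mostly at the tRNAs that lie between the other genes. The heavy strand carries both rRNAs, most mRNAs and most tRNAs, and the light strand carries mt-Nd6 and a minority of the tRNAs. The mRNAs encode core subunits of respiratory complex I (the mt-Nd genes), complex III (mt-Cytb), complex IV (the mt-Co genes) and ATP synthase (the mt-Atp genes), and the rRNAs and tRNAs serve the ribosomes inside the organelle. Hematopoietic stem cells are known for a low use of respiration compared with their progeny.

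Library chemistry differs between the tables. HSC RNA was amplified into complementary DNA without a stated selection for poly-A tails, whereas MPP RNA was poly-A selected, received insect carrier RNA and went into a directional kit. HSC libraries held 4064155 to 7879858 counts. MPP libraries held 17555267 to 32769369 with MTP10-HDL and 11252479 to 14691375 with PBS, so every treated one was deeper. The part of this depth in the MPP comparisons was not tested. Stem cell markers were present in both tables, with 8 of 8 HSC markers and 5 of 5 MPP markers counted. All 8 neutrophil, 7 macrophage, 6 B cell and 8 erythroblast markers also had counts in both tables. Labels name no batch of HSC libraries, so technical groups were cut from the counts, first by detected genes and then by nuclear rRNA share. Each group holds both treatments. MTP10-HDL 2 and 3 with PBS 1 and 4 had the fewest detected genes. MTP10-HDL 1 and 4 with PBS 2 and 3 had the highest nuclear rRNA shares, and MTP10-HDL 5 and 6 with PBS 5, 6 and 7 made up the rest.

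Mitochondrial transcripts made up similar parts of HSC libraries from both treatments, and most of them were rRNA. Their share of all counts was 23.1% ± 5.23 (SD, n = 6) in MTP10-HDL HSCs and 25.4% ± 2.95 (SD, n = 7) in PBS HSCs. The 6 MTP10-HDL libraries ran from 13.7% over a median of 24.0% to 29.4%, and the 7 PBS libraries from 21.8% over a median of 25.0% to 29.5%, so the groups overlapped. MTP10-HDL 6 was the lowest of the 13 libraries, at 13.7% (95% Wilson interval 13.65% to 13.71%). The rRNA genes took 21.8% ± 5.15 of counts in MTP10-HDL HSCs and 24.0% ± 2.79 in PBS HSCs. Protein-coding genes took 1.36% ± 0.184 in MTP10-HDL HSCs and 1.39% ± 0.266 in PBS HSCs, and the tRNA genes together took 0.00120% to 0.00260% of any HSC library. The difference in total share between the treatments, MTP10-HDL minus PBS, was 0.725 percentage points among the libraries with few detected genes, 1.32 among those with high nuclear rRNA and -8.40 among the others, against -2.29 over all 13. It ranged from -3.54 to -0.394 when each library was left out in turn, and the smallest size was reached without MTP10-HDL 6.

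MPP libraries carried a far smaller mitochondrial share, and there the protein-coding genes made up nearly all of it. The total was 3.07%, 1.87% and 4.33% in MTP10-HDL 1, 2 and 3, and 2.30% and 2.84% in PBS 2 and 3. Protein-coding genes took 2.93%, 1.69% and 4.14% of counts in the MTP10-HDL libraries and 2.23% and 2.67% in the PBS libraries, so both PBS values lay within the range of the treated ones. The rRNA share was 0.138%, 0.181% and 0.185% in the MTP10-HDL libraries and 0.0734% and 0.165% in the PBS libraries. PBS 2 was the lowest of the 5 in rRNA, and PBS 3 lay among the treated libraries. No Wilson interval of a total share spanned more than 0.0845 percentage points in any library, so counting error was far below the spread between libraries. Such intervals cover counting error only, since amplified reads without molecular identifiers are not independent molecules. The difference in mean total share was 0.517 percentage points and ranged from -0.102 without MTP10-HDL 3 to 1.13 without MTP10-HDL 2.

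**Figure D1:**
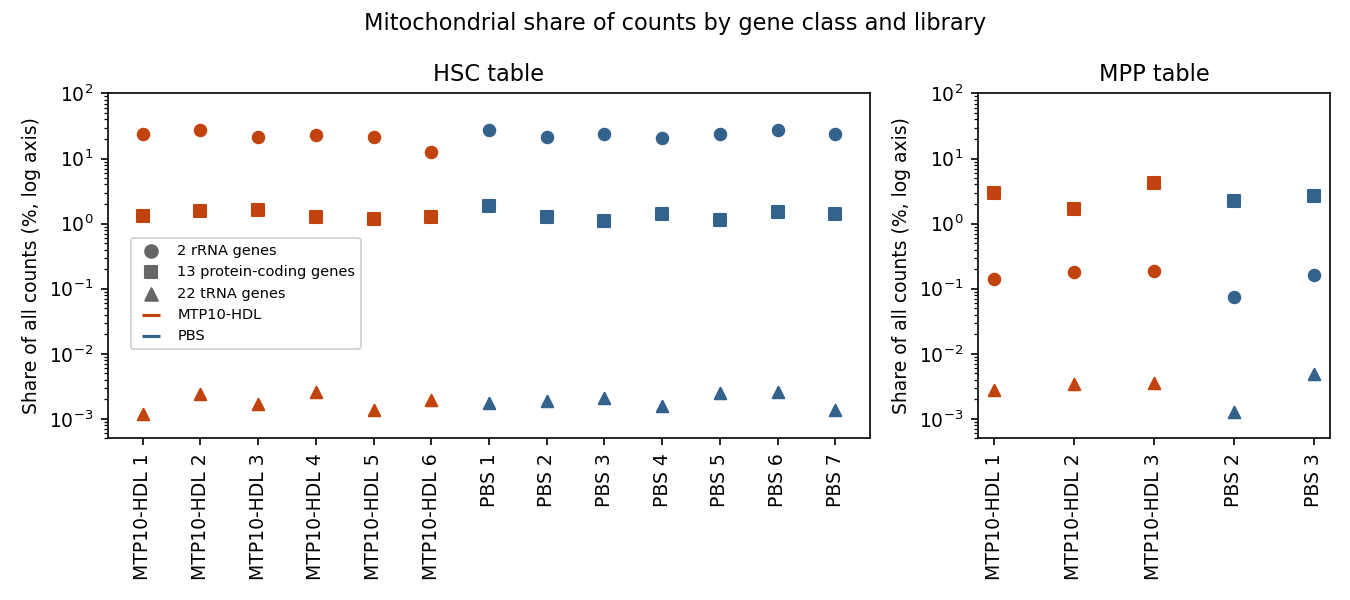
Share of all counts (%, log axis) taken by the mitochondrial rRNA, protein-coding and tRNA genes in each library, with the HSC table on the left and the MPP table on the right. The rRNA share lies between 12.4% and 27.9% in HSC libraries and between 0.0734% and 0.185% in MPP libraries, and the treatments overlap in every class.

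The rRNAs dominated the HSC libraries by length as well as by count. mt-Rnr2 (ENSMUSG00000064339, positions 1094 to 2675 of the mitochondrial chromosome), the large-subunit rRNA, had a median level of 111657 CPM per kb of gene in HSCs (range 53475 to 133706, n = 13), where CPM is the count scaled to a common library total. mt-Rnr1 (ENSMUSG00000064337, 70 to 1024), the small-subunit rRNA, had a median of 59984 CPM per kb (34108 to 93500). In MPPs the medians were 783 CPM per kb for mt-Rnr2 (326 to 890, n = 5) and 430 CPM per kb for mt-Rnr1 (228 to 513). mt-Rnr2 took more counts than any other row in 13 of 13 HSC libraries, whereas its rank by counts in MPP libraries lay between 43 and 178. Positions are those of RefSeq on assembly GRCm38.p6, to which all 37 genes were matched.

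Among the 7 HSC mRNAs with a mean over 10 CPM, mt-Co1, mt-Cytb and mt-Nd1 were the most abundant per length. mt-Co1 (ENSMUSG00000064351, 5328 to 6872), the catalytic core of cytochrome c oxidase, had a median of 3455 CPM per kb in HSCs. mt-Cytb (ENSMUSG00000064370, 14145 to 15288), cytochrome b of complex III, had 2660 CPM per kb, and mt-Nd1 (ENSMUSG00000064341, 2751 to 3707), a membrane subunit of complex I, had 2025 CPM per kb. These 3 held the top places in each of the 13 HSC libraries. mt-Co1 came before mt-Cytb in most, but mt-Cytb led in MTP10-HDL 4 and 5 and mt-Nd1 led in PBS 5, and their ranges overlapped. The other complex I mRNAs followed, with medians of 919 CPM per kb for mt-Nd5 (ENSMUSG00000064367, 11742 to 13565) and 693 CPM per kb for mt-Nd4 (ENSMUSG00000064363, 10167 to 11544). The lowest of the 7 were mt-Nd6 (ENSMUSG00000064368, 13552 to 14070) at 408 CPM per kb and mt-Nd2 (ENSMUSG00000064345, 3914 to 4951) at 342 CPM per kb. mt-Nd2 came last of the 7 in all HSC libraries but MTP10-HDL 1 and 2.

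MPP libraries ordered the same mRNAs differently. Median levels per length were 5362 CPM per kb for mt-Cytb, 4765 for mt-Nd1, 4203 for mt-Co1, 3857 for mt-Nd6 and 2730 for mt-Nd2, with mt-Nd4 at 1445 and mt-Nd5 at 1424 CPM per kb. The leading 4 overlapped in their ranges, and mt-Nd1 led in MTP10-HDL 2 and 3 whereas mt-Cytb led in the other 3 MPP libraries. mt-Nd6, the only mRNA of the light strand, stood above mt-Nd5 in every MPP library, with a ratio per base of 1.56 to 2.97, and below it in every HSC library, with a ratio of 0.327 to 0.595. It made up 0.987% to 2.38% of the protein-coding mitochondrial counts in HSCs and 5.61% to 10.7% in MPPs. mt-Nd2 shifted in the same way: mt-Nd1 over mt-Nd2 was 3.89 to 11.1 per base in HSCs and 1.74 to 2.22 in MPPs. mt-Nd5 and mt-Nd6 overlap by a few bases on opposite strands, and whether counting used the strand is not stated in the sources used here, so reads from the 2 strands may not be separated.

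Of the 37 genes, 25 had at least 1 count in some library and 12 had none in any of the 18. Those without a count were the mRNAs mt-Co2, mt-Atp8, mt-Atp6, mt-Co3 and mt-Nd4l and the tRNAs mt-Tw, mt-Ty, mt-Ts1, mt-Td, mt-Tk, mt-Tg and mt-Th. These mRNAs encode subunits of complex IV, of ATP synthase and of complex I. Of the 12, 9 fall in a stretch of 11 adjacent genes from mt-Ts1 to mt-Nd4l, positions 6870 to 10173 (3304 bases). The other genes of that stretch were close to 0 as well: mt-Nd3, a complex I subunit, had 0 to 6 counts in HSC libraries and 0 to 1 in MPP libraries, and mt-Tr had 1 to 9 counts in HSC libraries and 0 in MPP libraries. The limit that a count of 0 allows, 3 counts, corresponds to 0.381 to 0.738 CPM in HSC libraries and 0.0915 to 0.267 CPM in MPP libraries, and it covers counting error only.

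Part of that stretch has nuclear counterparts in the annotation, matched here by length and position with no sequence compared. RefSeq places Gm10925, which has the length of mt-Atp6 (681 bases), at positions 24613971 to 24614651 of chromosome 1, and Gm10222, which has the length of mt-Nd4l (297 bases), at positions 24612404 to 24612700. Their spacing mirrors that of the mitochondrial genes in reverse order to within 1 base, since the nuclear start and the mitochondrial end add up to 24622578 for Gm10925 with mt-Atp6 and to 24622577 for Gm10222 with mt-Nd4l. These nuclear copies were barely counted. Gm10925 had 2 to 16 counts in HSC libraries and 0 to 3 in MPP libraries, and Gm10222 had 0 to 3 counts in HSC libraries and 0 in MPP libraries. Among 5 further annotated copies the highest count was 25, for Gm28661 in an HSC library, and none of the copies reached a mean of 10 CPM in either table. How the authors' counting treated reads that match several places is not stated in the sources used here, so the zeros of this stretch are uncertain as levels. The cause of the zeros was not tested, and neither was any effect of the nuclear copies on counts of the neighbours mt-Co1 and mt-Nd4.

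The tRNAs, which are short and tightly folded, gave few counts, and the tables differed in which strand's tRNA genes held them. In HSC libraries 15 of the 22 had counts. The highest means there were 5.93 CPM for mt-Tl1 (tRNA for leucine, 6 to 76 counts), 4.13 CPM for mt-Tp (proline, 11 to 48 counts), 2.01 CPM for mt-Tc (cysteine) and 1.68 CPM for mt-Tf (phenylalanine), and among those with counts the lowest was mt-Te (glutamate) at 0.146 CPM. In MPP libraries 7 had counts, led by mt-Tc at 25.8 CPM (165 to 779 counts) and mt-Tp at 5.26 CPM (22 to 246 counts), and the lowest with counts was mt-Ti (isoleucine), with 1 count in 1 library. The 8 tRNA genes of the light strand, which include mt-Tc and mt-Tp, took 97.6% to 100% of mitochondrial tRNA counts in MPP libraries and 19.6% to 64.4% in HSC libraries. In MPPs 4 of these 8 had counts, and mt-Tc and mt-Tp held most of them. The 14 tRNA genes of the heavy strand gave 27 to 135 counts in an HSC library and 0 to 13 in an MPP library, although MPP libraries were deeper. Whether counting used the strand is not stated, so these counts need not be RNA from the strand of the gene.

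Across the tables, the balance of mRNA to rRNA differed more than any single mRNA. Protein-coding mitochondrial counts per mitochondrial rRNA count were 0.0454 to 0.101 in HSC libraries (median 0.0555) and 9.32 to 30.4 in MPP libraries (median 21.2). The log2 ratio of the HSC median to the MPP median was -8.57, a 381-fold higher balance in MPPs. For mt-Co1 over mt-Rnr2 alone the log2 difference was -7.81, and leaving out any library kept the difference of the sums between -8.61 and -8.39. Library ranges of CPM did not overlap between the tables for 10 of the 25 mitochondrial genes with counts. mt-Rnr1, mt-Rnr2, mt-Tf, mt-Tl1, mt-Tr and mt-Tl2 were higher in all HSC libraries, and mt-Nd1, mt-Nd2, mt-Nd6 and mt-Tc were higher in all MPP libraries. Over all 48032 rows with counts, 11.2% did not overlap, 5.91% with all HSC libraries higher and 5.31% with all MPP libraries higher. With nuclear counts alone as the denominator the number was 9, since mt-Nd1 then overlapped. On that scale 11.1% of all rows with counts did not overlap, 7.9% with all HSC libraries higher and 3.23% with all MPP libraries higher. Cell type, kit and aligner version differ together between the tables and cannot be told apart, so no test was made.

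**Figure D2:**
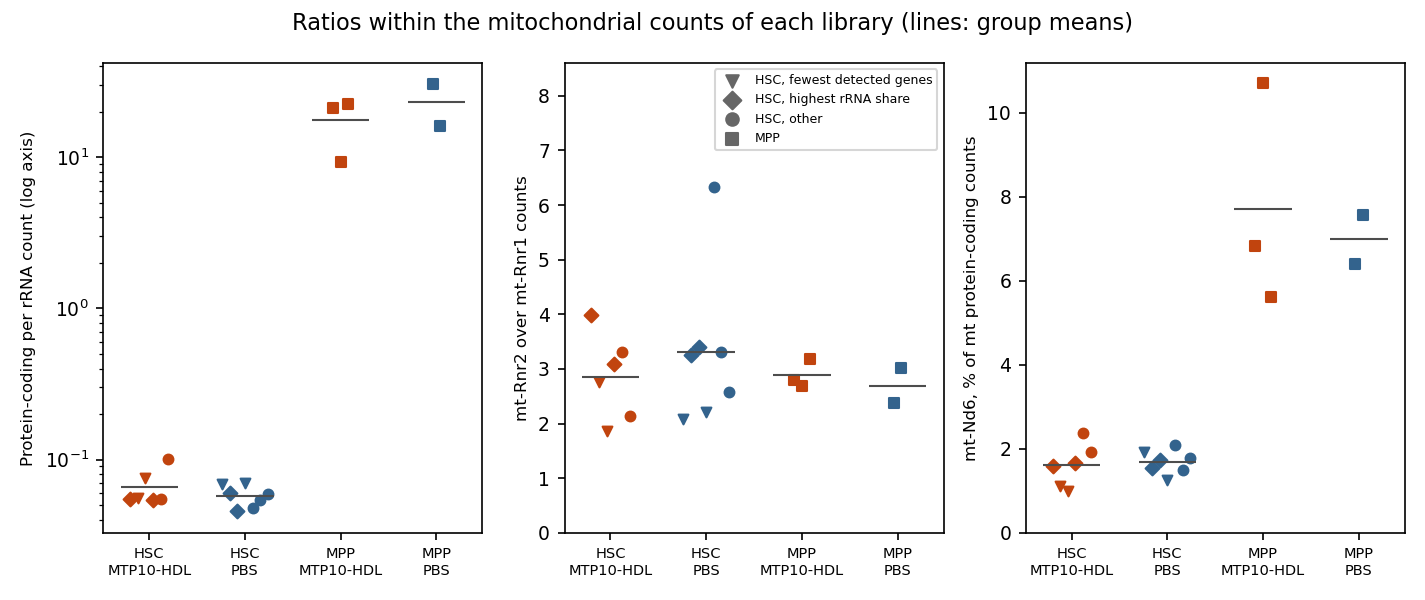
Ratios within the mitochondrial counts of each library by table and treatment: protein-coding per rRNA count (log axis), mt-Rnr2 over mt-Rnr1, and mt-Nd6 as a percentage of mitochondrial protein-coding counts, with lines for group means and marker shapes for the technical groups of HSC libraries. The tables separate in the left and the right panel, and MTP10-HDL and PBS libraries overlap in each panel.

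In HSCs 8 of the 9 abundant mitochondrial genes varied less between libraries than the median gene, and in MPPs 1 of 10 did. The genes compared were not matched in level. Over the 9 genes with a mean of at least 10 CPM in HSCs, the median coefficient of variation between libraries was 23.9%, against 28.3% over all 9687 genes of that level. mt-Cytb was the steadiest at 16.8%, with a highest value 1.86 times the lowest, and mt-Nd2 the most variable at 29.6%. Over 10 such genes in MPPs the median was 34.8%, against 19.7% over 9724 genes. There mt-Nd6 varied least, at 17.3%, and mt-Co1 most, at 41.8%, with a highest value 3.58 times the lowest.

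No mitochondrial gene passed the test between MTP10-HDL and PBS in HSCs. With edgeR's quasi-likelihood test and an adjusted p threshold of 0.05, none of the 13 mitochondrial genes tested was called, and neither was any of the 16631 genes tested (0%). At an unadjusted p under 0.05 the numbers were 0 of 13 and 1469 of 16631 (8.83%). The fold change was positive for 3 of the 13 and negative for 10, with a median log2 fold change of -0.21 (range -0.87 to 0.60), against -0.02 over all genes tested. limma voom and DESeq2 also called 0 mitochondrial genes, with 1 at an unadjusted p under 0.05 in each, mt-Tp. Over all genes, limma voom called 0 of 16631, with 1383 at an unadjusted p under 0.05, and DESeq2 called 104 of 47696, with 2795. Library ranges overlapped for all 13, whereas 0.343% of all genes tested had ranges that did not overlap. The 13 are the genes that passed the filter on low counts, and the other 24 had too few counts or none.

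The rRNAs and the mRNAs mt-Co1 and mt-Cytb had fold changes within 1 standard error of 0. After scaling with TMM (trimmed mean of M values), mt-Rnr2 ran from 68308 over a median of 163353 to 233767 CPM in MTP10-HDL HSCs, and from 138989 over a median of 194162 to 221632 CPM in PBS HSCs. MTP10-HDL 6 lay below the PBS range and MTP10-HDL 2 above it, the other 4 lay within, and the log2 fold change was -0.21 (SE 0.22). mt-Rnr1 averaged 57884 ± 19810.3 CPM in MTP10-HDL HSCs and 63242 ± 22270.5 CPM in PBS HSCs (log2 fold change -0.13, SE 0.25). mt-Co1 averaged 5187 ± 1965 CPM in MTP10-HDL HSCs and 5512 ± 1556 CPM in PBS HSCs (-0.09, SE 0.24), and mt-Cytb averaged 3100 ± 532 CPM in MTP10-HDL HSCs and 3194 ± 943 CPM in PBS HSCs (-0.04, SE 0.18). The sign of mt-Cytb turned without TMM scaling, to 0.04.

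The complex I mRNAs tested had the more negative values, with mt-Nd1 as the exception. mt-Nd2 ran from 238 over a median of 332 to 449 CPM in MTP10-HDL HSCs and from 299 over a median of 408 to 850 CPM in PBS HSCs. The treated libraries lay within or below the PBS range, and the log2 fold change of -0.42 (SE 0.22) gave an unadjusted p of 0.0793 and an adjusted p of 0.586 in edgeR. Without PBS 1 the fold change of mt-Nd2 was -0.17, and with the technical groups as a term it was -0.47 (edgeR unadjusted p = 0.0373, adjusted p = 0.483). mt-Nd5 ran from 1461 to 1765 CPM in MTP10-HDL HSCs and from 1336 to 3076 CPM in PBS HSCs (-0.22, SE 0.17), mt-Nd4 had a fold change of -0.22 (SE 0.21) and mt-Nd6 of -0.25 (SE 0.18) on the log2 scale. mt-Nd1 averaged 2174 ± 599 CPM in MTP10-HDL HSCs and 2140 ± 831 CPM in PBS HSCs (0.02, SE 0.22). PBS 1 was the highest library for each of these 5 mRNAs. Without it the median over the 13 genes was -0.0067 with 5 positive, and without MTP10-HDL 6 it was -0.04 with 6 positive.

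Of the tRNAs tested in HSCs, mt-Tp had the most negative value. It ran from 1.62 over a median of 1.95 to 7.28 CPM in MTP10-HDL HSCs, and from 2.79 over a median of 4.17 to 10.4 CPM in PBS HSCs. MTP10-HDL 1, 2, 3, 5 and 6 lay below every PBS library, and MTP10-HDL 4 lay among them. The log2 fold change was -0.87 (SE 0.47, edgeR unadjusted p = 0.0802, adjusted p = 0.587), and without MTP10-HDL 4 it was -1.37. mt-Tf had a fold change of 0.60 (SE 0.47), mt-Tl1 of 0.0023 (SE 0.44) and mt-Tc of -0.55 (SE 0.53).

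In MPPs nearly all mitochondrial genes tested had higher fitted levels in MTP10-HDL libraries, and none passed the test. edgeR tested 11 of them and called 0, as it called 0 of 15449 genes (0%), and an unadjusted p under 0.05 was reached by 0 of 11 and by 963 of 15449 genes (6.23%). The fold change was positive for 10 and negative for 1, with a median of 0.27 on the log2 scale (range -0.02 to 0.79), against 0.02 over all genes tested. limma voom and DESeq2 also called 0 mitochondrial genes, and with DESeq2 1 of them, mt-Tt with 13 counts in PBS 3 and 0 in the other MPP libraries, reached an unadjusted p under 0.05. Over all genes, limma voom called 0 of 15449, with 955 at an unadjusted p under 0.05, and DESeq2 called 163 of 26202, with 1217. Ranges overlapped for all 11, whereas 24.3% of all genes tested had ranges that did not overlap in this small design.

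The rRNAs had the larger positive values among the abundant MPP transcripts. mt-Rnr2 stood at 986, 1428 and 1360 CPM in MTP10-HDL 1, 2 and 3, and at 516 and 1234 CPM in PBS 2 and 3. PBS 2 lay lowest and PBS 3 lay among the treated libraries, and the log2 fold change was 0.52 (SE 0.39). mt-Rnr1 stood at 352, 530 and 429 CPM in the MTP10-HDL libraries and at 218 and 409 CPM in the PBS libraries (0.48, SE 0.32, edgeR unadjusted p = 0.174). For mt-Nd1 the values were 4641, 3812 and 7433 CPM in MTP10-HDL libraries and 3335 and 4540 CPM in PBS libraries (0.43, SE 0.36). For mt-Co1 they were 7123, 3352 and 10707 CPM in MTP10-HDL libraries and 6219 and 6466 CPM in PBS libraries (0.15, SE 0.46). MTP10-HDL 3 was the highest and MTP10-HDL 2 the lowest of the 5 for mt-Co1, so the treated libraries bracketed the PBS pair.

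Fold changes of the other MPP mRNAs on the log2 scale were 0.41 for mt-Nd5 (SE 0.37), 0.27 for mt-Nd2 (SE 0.35), 0.25 for mt-Nd6 (SE 0.26), 0.15 for mt-Cytb (SE 0.35) and 0.02 for mt-Nd4 (SE 0.42). The tRNA mt-Tp had 0.79 (SE 0.65) and mt-Tc -0.02 (SE 0.47). Both were lower in PBS 2 than in PBS 3, mt-Tc at 11.2 and 41.1 CPM and mt-Tp at 1.497 and 5.93 CPM. Single libraries decided the size of the pattern. Without MTP10-HDL 3, 7 of 11 genes were positive with a median of 0.02, and without PBS 2 it was 9 of 12 with a median of 0.03. Without PBS 3 all 11 were positive with a median of 0.58. Dropping either PBS library leaves 1 in that group.

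**Figure D3:**
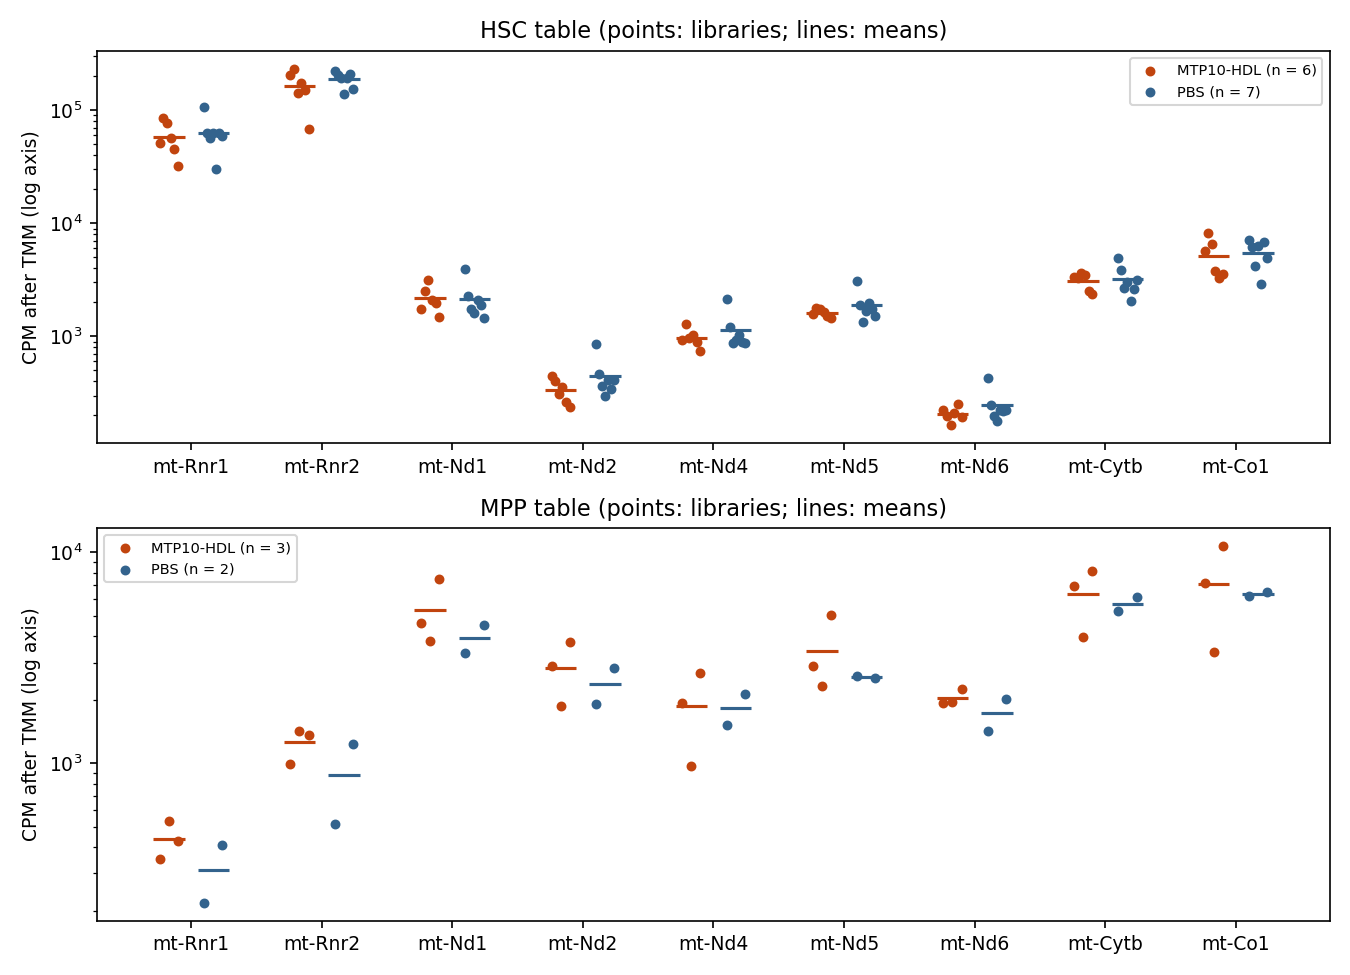
CPM after TMM scaling (log axis) of the 9 mitochondrial rRNAs and mRNAs with a mean of at least 10 CPM in both tables, by library, with lines for group means. MTP10-HDL and PBS libraries overlap for each gene in each table.

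**Figure D4:**
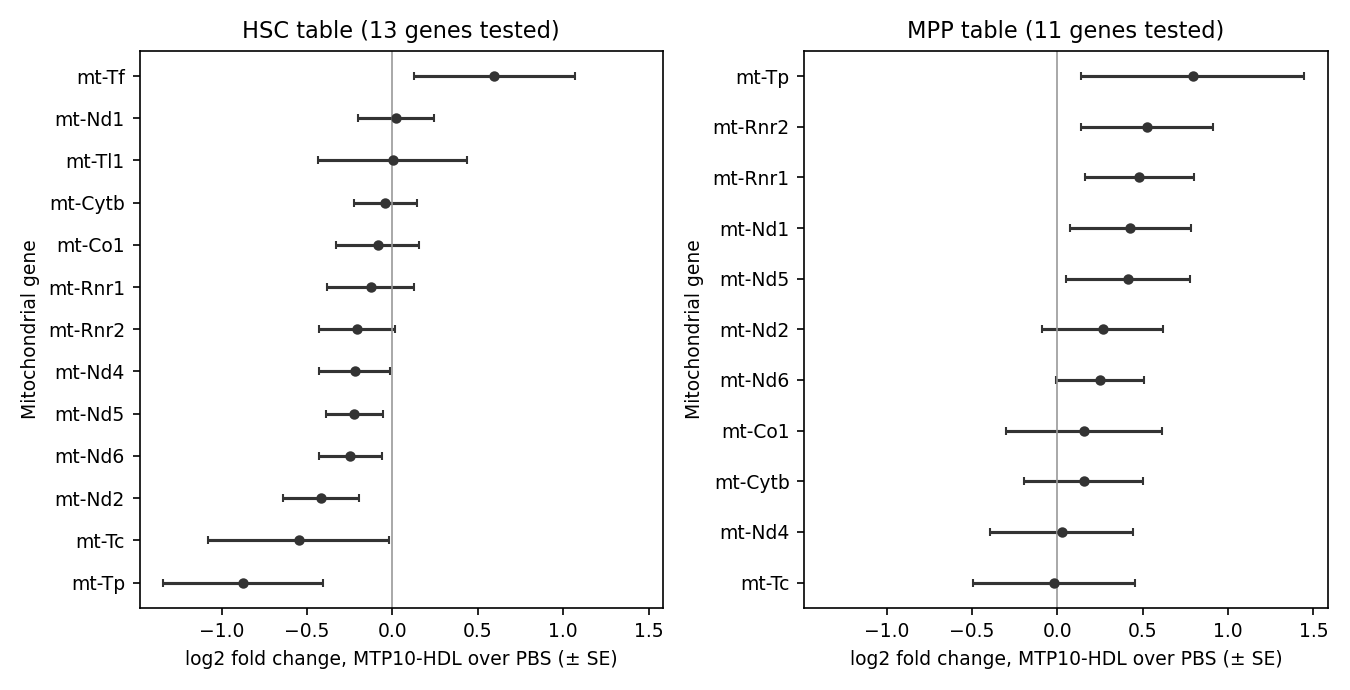
Log2 fold change of MTP10-HDL over PBS with its standard error for the 13 mitochondrial genes tested in HSCs and the 11 tested in MPPs. Values run from -0.87 to 0.60 in HSCs and from -0.02 to 0.79 in MPPs.

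A difference in response between the cell types was called for no mitochondrial gene. In a joint edgeR fit of all 18 libraries with a mean for each group, the MPP response minus the HSC response was tested for 16 of them. Of these 0 passed or reached an unadjusted p under 0.05, while 1 of 24470 genes passed (0.00409%). The 16 include mt-Tf, mt-Tv and mt-Tl1, which had 0 counts in every MPP library. For those tRNAs no MPP response could be estimated, so the test could not decide. The difference on the log2 scale was 0.76 for mt-Rnr2 (SE 0.49), 0.63 for mt-Rnr1 (SE 0.51), 0.71 for mt-Nd2 (SE 0.43) and 1.70 for mt-Tp (SE 0.91), with unadjusted p-values of 0.135, 0.226, 0.117 and 0.0727 in edgeR. Tables normalized by different kits enter this fit, so it is given as a description of the responses only.

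Ratios within the organelle are free of library scaling, and no difference by treatment beyond the spread was found in them. mt-Rnr2 over mt-Rnr1, which are cut from 1 precursor, was 2.86 ± 0.780 in MTP10-HDL HSCs (n = 6) and 3.31 ± 1.44 in PBS HSCs (n = 7), with a 2-sided exact permutation p of 0.571. It was 2.89 ± 0.252 in MTP10-HDL MPPs (n = 3) and 2.69 ± 0.459 in PBS MPPs (n = 2), with an exact p of 0.5. The mt-Nd6 share of protein-coding mitochondrial counts was 1.61% ± 0.515 in MTP10-HDL HSCs and 1.69% ± 0.278 in PBS HSCs (exact permutation p = 0.594), and 7.71% ± 2.66 in MTP10-HDL MPPs and 6.98% ± 0.836 in PBS MPPs (exact permutation p = 0.9). After Benjamini-Hochberg adjustment over these 4 exact tests the values were 0.793, 0.793, 0.793 and 0.9. The smallest exact p that the design allows is 0.1 in MPPs and 0.000583 in HSCs. By technical group of the HSC libraries the rRNA ratio was 1.87 to 2.75 in the libraries with few detected genes, 3.08 to 3.98 in those with high nuclear rRNA and 2.13 to 6.33 in the others.

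Nuclear genes that make, process and stabilise mitochondrial RNA, or that act on mitochondrial DNA, were also compared. The list held 52 genes, of which 51 were in the tables and 50 were tested in each. In HSCs 33 were positive and 17 negative, 0 passed in edgeR, 2 reached an unadjusted p under 0.05, where 8.83% of all genes tested did, and the median log2 fold change was 0.07. In MPPs 40 were positive and 10 negative, 0 passed, 2 reached an unadjusted p under 0.05, where 6.23% of all genes tested did, and the median was 0.16. None was called by DESeq2 or limma voom. Medians over all genes tested were -0.02 in HSCs and 0.02 in MPPs. The smallest p-values in HSCs belonged to Fastk, a member of the FASTK family of mitochondrial RNA regulators, at 25.9 ± 4.85 CPM in MTP10-HDL HSCs and 17.5 ± 5.84 CPM in PBS HSCs (log2 fold change 0.56, SE 0.23, edgeR adjusted p = 0.516). Tefm, the elongation factor of mitochondrial transcription, had 18.1 ± 3.31 CPM in MTP10-HDL HSCs and 12.7 ± 3.804 CPM in PBS HSCs (0.51, SE 0.23). In the negative direction Pus1, a pseudouridine synthase, had -0.46 (SE 0.34) and Trmt61b, a tRNA methyltransferase, -0.56 (SE 0.47).

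In MPPs the smallest p-values of that list belonged to Mrpl12, a ribosomal protein of the organelle that also binds its RNA polymerase, and Lrpprc, which stabilises its mRNAs. Mrpl12 stood at 111 ± 39.4 CPM in MTP10-HDL MPPs and 65.6 ± 9.01 CPM in PBS MPPs (log2 fold change 0.76, SE 0.31), and Lrpprc at 121 ± 5.82 CPM in MTP10-HDL MPPs and 85.9 ± 14.3 CPM in PBS MPPs (0.49, SE 0.20), each with an adjusted p of 0.787 in edgeR. Polg, the mitochondrial DNA polymerase, had -0.21 (SE 0.23) and Mterf1b -0.36 (SE 0.44). Those values of both cell types did not pass the test.

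Markers of other cells and signs of RNA quality were set beside these values. The summed level of the 8 erythroblast markers was 57.4 to 111 CPM in MTP10-HDL HSCs and 106 to 448 CPM in PBS HSCs, and 19.5 to 37.3 CPM in MTP10-HDL MPPs and 57.7 to 91.2 CPM in PBS MPPs, with no marker at 0. Neutrophil markers summed to 584 to 4955 CPM in MTP10-HDL HSCs and 95.9 to 3706 CPM in PBS HSCs, and to 239 to 1640 CPM in MTP10-HDL MPPs and 587 to 750 CPM in PBS MPPs. Macrophage markers summed to 162 to 2066 CPM in MTP10-HDL HSCs and 119 to 1478 CPM in PBS HSCs, and to 51.1 to 109 CPM in MTP10-HDL MPPs and 85.9 to 103 CPM in PBS MPPs. B cell markers summed to 45.2 to 87.9 CPM in MTP10-HDL HSCs and 36.3 to 406 CPM in PBS HSCs, and to 173 to 293 CPM in MTP10-HDL MPPs and 211 to 357 CPM in PBS MPPs. Of these 4 lists, the erythroblast markers in MPPs alone had groups that did not overlap. The 8 stem cell markers did not overlap in MPPs either, at 1959 to 2255 CPM with MTP10-HDL and 2380 to 2527 CPM with PBS. The 5 MPP markers overlapped there, at 2492 to 2725 CPM with MTP10-HDL and 2178 to 2561 CPM with PBS. Immunoglobulin genes took 2.76% to 4.26% of counts in MTP10-HDL MPPs and 6.20% to 12.5% in PBS MPPs, and nuclear rRNA took 0.508% to 0.915% in MTP10-HDL MPPs and 1.26% to 1.47% in PBS MPPs. In HSCs both overlapped: immunoglobulin genes took 0.374% to 4.90% with MTP10-HDL and 0.271% to 19.8% with PBS, and nuclear rRNA 0.101% to 1.26% with MTP10-HDL and 0.0686% to 1.21% with PBS. With immunoglobulin rows left out of the total, the mean mitochondrial share was 3.20% ± 1.25 in MTP10-HDL MPPs and 2.83% ± 0.282 in PBS MPPs. In HSCs it was 23.6% ± 5.64 with MTP10-HDL and 26.9% ± 3.09 with PBS. The difference, MTP10-HDL minus PBS, thereby went from 0.517 to 0.372 percentage points in MPPs and from -2.29 to -3.29 in HSCs. The part of these markers in the mitochondrial values was not tested, and in bulk libraries fewer cells of a type and less RNA per cell cannot be told apart.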

How the data were processed

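The authors deposited raw counts per Ensembl gene, 1 table for HSCs and 1 for MPPs, each with 55471 rows. The submitters' processing notes name mm10 for both, STAR 2.5.2b and CASAVA 1.8.2 for HSCs, and STAR 2.7.2a, R 3.6.1 and DESeq2 1.24 for MPPs. How reads were counted, with which strand setting and which rule for several matches, is not stated in the sources used here. HSC PBS columns are numbered 1 to 7 and the labels differ, so PBS columns stand for the group and keep their column numbers.

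Tables were fitted one by one with edgeR 4.0.16 in R 4.3.3 (TMM, filterByExpr defaults, quasi-likelihood F test, Benjamini-Hochberg over all genes tested, threshold 0.05). The SE of an edgeR fold change is its absolute log2 value over the square root of the F statistic. DESeq2 1.42.0 and limma voom 3.58.1 were alternatives. The fit was tested on simulated data. Shares are raw counts over all counts, with 95% Wilson intervals. All protein-coding and rRNA genes are named, tRNA genes where tested or extreme in level, and listed nuclear genes by smallest p. Members and lists were chosen with earlier results of these data known, and the library spread, strand grouping and joint fit were added after seeing the data. Technical groups of HSC libraries were defined from these same counts. ATAC-seq samples were not analysed here. No other column of sample values was present.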

Additional observations from a re-analysis of the deposited data

Results flagged for a closer look

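Single libraries stood apart in 7 of 40 groups of values examined, where chance alone marks about 1 in 20 independent groups. The groups here are not independent, since 5 of the 7 concern 1 library, PBS 1. CPM values here are after TMM scaling, with a TMM factor of 0.847 for PBS 1. On that scale PBS 1 was the highest HSC PBS library for all 9 of the abundant rRNAs and mRNAs. Its gap to the next was wide enough to stand apart for the 5 complex I mRNAs among them. Before TMM, mt-Rnr2 took 18.6% of counts in PBS 1 and 21.2% in PBS 6. After TMM, PBS 1 had 3919 CPM of mt-Nd1 against 2258 in the next highest PBS library, and 850 CPM of mt-Nd2 against 466. It had 2136 CPM of mt-Nd4 against 1215, 3076 CPM of mt-Nd5 against 1983, and 432 CPM of mt-Nd6 against 249. PBS 5 had the highest mt-Rnr2 over mt-Rnr1 ratio among HSC PBS libraries, 6.33, against 3.40 in the next. MTP10-HDL 4 had 7.28 CPM of mt-Tp, against 2.75 CPM in the next highest MTP10-HDL HSC library.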

How the results depend on the processing

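The number of mitochondrial genes called between MTP10-HDL and PBS stayed at 0 in both tables without TMM, with scaling from nuclear rows, without the low-count filter, in limma voom, in DESeq2, with a technical group term, with the replicate number as a block and without any single library. Over all genes, DESeq2 called 104 of 47696 in HSCs and 163 of 26202 in MPPs. Dropping the filter gave 44 of 47787 and 345 of 26208, and the replicate block gave 0 of 15879 and 43 of 14920. The block could use 6 against 6 HSC libraries and 2 against 2 MPP libraries, and same-numbered libraries did not deviate together (correlations -0.19 to 0.19 in HSCs, -0.17 and -0.03 in MPPs). With the block, HSC mt-Nd2 had an unadjusted p of 0.0346 (adjusted 0.760) in edgeR. Values near 0 changed sign: HSC mt-Cytb to 0.038 without TMM and 0.013 without the filter, HSC mt-Nd1 to -0.027 with the block and -0.025 with the technical term, HSC mt-Tl1 to -0.031 in limma voom, -0.00086 in DESeq2, -0.24 with the block and -0.14 with the technical term. In MPPs, mt-Co1 went to -0.085 and mt-Cytb to -0.0019 with the block, mt-Nd4 to -0.060 in limma voom and -0.16 with the block, and mt-Tc to 0.0072 without the filter, 0.32 in limma voom and 0.33 with the block. The cause was not tested. With mt-Co1 over mt-Rnr2 alone, the HSC to MPP difference was -7.81 instead of -8.57.

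Of 32 gene results, 21 kept their sign in every alternative fit. For the other 11 and for the ratios, leaving out each library in turn gave log2 ranges that crossed 0. For mt-Rnr2 over mt-Rnr1 they were -0.27 to 0.0069 in HSCs and -0.068 to 0.28 in MPPs, and for the mt-Nd6 share -0.24 to 0.016 in HSCs and -0.17 to 0.30 in MPPs. HSC ranges were -0.26 to 0.036 for mt-Co1, -0.12 to 0.10 for mt-Cytb, -0.11 to 0.24 for mt-Nd1, -0.31 to 0.015 for mt-Nd4, -0.26 to 0.052 for mt-Rnr1 and -0.31 to 0.15 for mt-Tl1. MPP ranges were -0.42 to 0.017 for Polg, -0.27 to 0.49 for mt-Co1, -0.060 to 0.40 for mt-Cytb, -0.33 to 0.33 for mt-Nd4 and -0.69 to 1.20 for mt-Tc. With 2 PBS libraries, the MPP comparison has little power, and a lone PBS library is assumed to vary like the other group.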
